A study of Mus musculus with 10 samples.

Results

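The 36 genes described here encode lysosomal hydrolases, their activators and proteins of the lysosomal membrane. They were chosen by symbol, as a standard set of this organelle, with earlier results of these data known. Each was matched to an Entrez ID of the deposited table. All 36 were found among the 27179 IDs, and all 36 were among the 16018 genes that passed the filter on low counts. Total RNA of whole cochleas was sequenced at postnatal day 8, as 5 Pknox2-/- libraries (knockout 1 to 5) and 5 Pknox2+/+ libraries (wild type 1 to 5), going by their labels. Pknox2 encodes a homeodomain transcription factor of the TALE family, and the comparison asks which cochlear transcripts differ where both copies are labelled as lost. The sources used here state neither how the allele was made nor the strain, the sex or the number of pups behind a library.

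Lysosomes are acidic organelles in which hydrolases break down glycans, proteins and lipids delivered by endocytosis and autophagy. Most of the soluble hydrolases are tagged with mannose 6-phosphate in the Golgi and sorted by its receptors, a proton pump acidifies the lumen, and heavily glycosylated membrane proteins line it. Many of the genes share a short palindromic promoter element bound by TFEB and related factors. In the ear, inherited defects of several of these enzymes are known to come with hearing loss, and osteoclasts and macrophages are cell types rich in lysosomal products.

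The promoter element is shown first, as a sequence feature that does not rest on the counts. Since many lysosomal genes are known to share it, its excess in a list of such genes carries no test. Of the 31 members with a promoter, 12 held its core while 19 did not. RefSeq promoters (GRCm38.p6, from 250 bases before to 50 after a start site) were held for 31 of the 36 genes, in 34 stretches. The core CACGTG, which reads the same on both strands, was in 12 of these 34 (35.3%), against 7.15% of all 32851 promoters. The longer TCACGTGA, which contains the core, was in 5 of 34 (14.7%) against 0.974% of all, and the full palindrome, in which GT precedes and AC follows the core, was in 1 of 34 (2.94%) against 0.326%. A match describes these letters and does not show that a factor binds there. The stretches printed here are the upstream parts around each core, 5′ to 3′ on the gene's strand, with the core in capitals. Glb1, Naglu, Ctsa and Arsa are the carriers with an unadjusted p under 0.05, and Lamp1, Mcoln1, Cln3 and Ctsd are carriers without.
Glb1, chr9:114401008-114401057, plus strand: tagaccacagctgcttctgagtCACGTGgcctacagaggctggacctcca
Naglu, chr11:101069999-101070048, plus strand: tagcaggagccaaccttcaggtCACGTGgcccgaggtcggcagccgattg
Ctsa, chr2:164833739-164833772, plus strand: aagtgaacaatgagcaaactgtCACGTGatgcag
Arsa, chr15:89477425-89477462, minus strand: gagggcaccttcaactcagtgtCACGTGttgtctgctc
Lamp1, chr8:13159078-13159160, plus strand: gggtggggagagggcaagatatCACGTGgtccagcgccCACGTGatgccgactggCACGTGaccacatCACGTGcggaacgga
Mcoln1, chr8:3500426-3500501, plus strand: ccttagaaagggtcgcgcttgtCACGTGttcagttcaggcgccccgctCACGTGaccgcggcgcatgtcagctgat
Cln3, chr7:126583330-126583407, minus strand: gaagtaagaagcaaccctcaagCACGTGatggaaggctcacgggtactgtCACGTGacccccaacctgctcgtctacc
Ctsd, chr7:142388045-142388077, minus strand: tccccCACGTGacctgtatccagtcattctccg
Ctsd, chr7:142387898-142387947, minus strand: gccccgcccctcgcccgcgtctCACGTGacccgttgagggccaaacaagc
Lamp1 held 4 cores between 61 and 15 bases before its start site, while Glb1 held 1, at 48 bases. Ctsd held 2, printed as separate stretches, the nearer at 98 bases. Cln3 was the member with the full palindrome, at the second of its 2 cores. The stretches of Cln3 and Ctsa lie inside the annotated spans of their genes, 126571207 to 126585817 and 164832872 to 164841032. They therefore precede start sites within the gene, not its outermost one.

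Library totals ran from 16.6 to 19.4 M counts. Pknox2 itself was at 21.1 ± 4.38 CPM in the knockout and 19.9 ± 1.96 CPM in wild type (SD, n = 5 each; CPM is the count scaled to a library size of 1 M with TMM factors), so its count does not check the labels. All 15 markers of the cochlea were detected, among them Coch at 860 ± 88.0 CPM in the knockout and 1436 ± 155 CPM in wild type. The first principal component of all tested genes held 56.6% of the variance and set knockout 2, 3 and 5 apart, at scores of 73.5, 41.2 and 45.1, from the other 7 libraries at -42.3 to 2.77. The 4 Y-linked genes summed to 209 CPM in knockout 1 and 0 to 11.3 CPM in knockout 2 to 5, against 102 to 225 CPM in wild type, so 4 of 5 knockout libraries differ from wild type in these genes, and sex and genotype can hardly be told apart. With the Y-linked level as a covariate the members' median log2 fold change was 0.023, and 1 member was higher and 0 lower at an unadjusted p under 0.05, against 0.837% and 0.974% of all genes. Ribosomal protein genes took 4.66% to 6.01% of counts in knockout 2, 3 and 5 and 2.29% to 3.92% in the other 7 libraries, and the part of this in the results was not tested. Values without knockout 2, 3 and 5, which keep knockout 1 and knockout 4 against the 5 wild-type libraries, are given beside the members' results.

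Per kilobase of exon, the 36 genes ran from 4.31 to 588 CPM per kb in their wild-type means. Psap, the precursor of the saposins that help sphingolipid hydrolases, had the highest level, at 636 ± 60.8 CPM per kb in the knockout and 588 ± 32.4 CPM per kb in wild type (SD, n = 5 each). Its levels were 1559.6, 1844, 1845, 1572 and 1910.1 CPM in knockout 1 to 5, against 1631, 1531, 1647, 1738 and 1524 CPM in wild type 1 to 5, with overlapping groups. Ctsd, the aspartic protease cathepsin D, came next at 593 ± 145 CPM per kb in the knockout and 462 ± 48.7 CPM per kb in wild type, and the membrane glycoprotein gene Lamp1 came after it at 288 ± 20.4 CPM per kb in the knockout and 274 ± 20.6 CPM per kb in wild type. Lamp1 had 575, 649, 697, 627 and 663 CPM across knockout 1 to 5 and 639, 633, 560.0, 660.0 and 565 CPM across wild type 1 to 5, and the 2 groups overlapped.

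At the low end stood Gla, the alpha-galactosidase that degrades globotriaosylceramide, at 5.00 ± 0.594 CPM per kb in the knockout and 4.31 ± 0.432 CPM per kb in wild type. It had 12.8, 15.3, 16.7, 17.2 and 17.3 CPM in knockout 1 to 5, against 14.1, 15.3, 13.1, 14.1 and 11.6 CPM in wild type 1 to 5. Idua, the alpha-L-iduronidase of heparan and dermatan sulfate breakdown, was next lowest at 6.70 ± 0.690 CPM per kb in the knockout and 5.84 ± 0.612 CPM per kb in wild type. Its values were 21.1, 26.9, 23.3, 21.8 and 25.5 CPM across knockout 1 to 5 and 24.0, 18.5, 20.0, 19.3 and 21.5 CPM across wild type 1 to 5, again with overlapping groups. Between these ends many neighbours could not be told apart in wild type. There the libraries of Gaa, Gm2a, Ppt1, Arsb and Man2b1 lay over one another on this scale. In the knockout, the libraries of Gaa lay wholly above those of Ppt1 and Man2b1. The coefficient of variation between libraries of a group had a median over the 36 genes of 13.4% in the knockout and 9.97% in wild type, and its highest value was 40.5% in the knockout, for Scarb2, and 17.98% in wild type, for Tpp1.

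**Figure D1:**
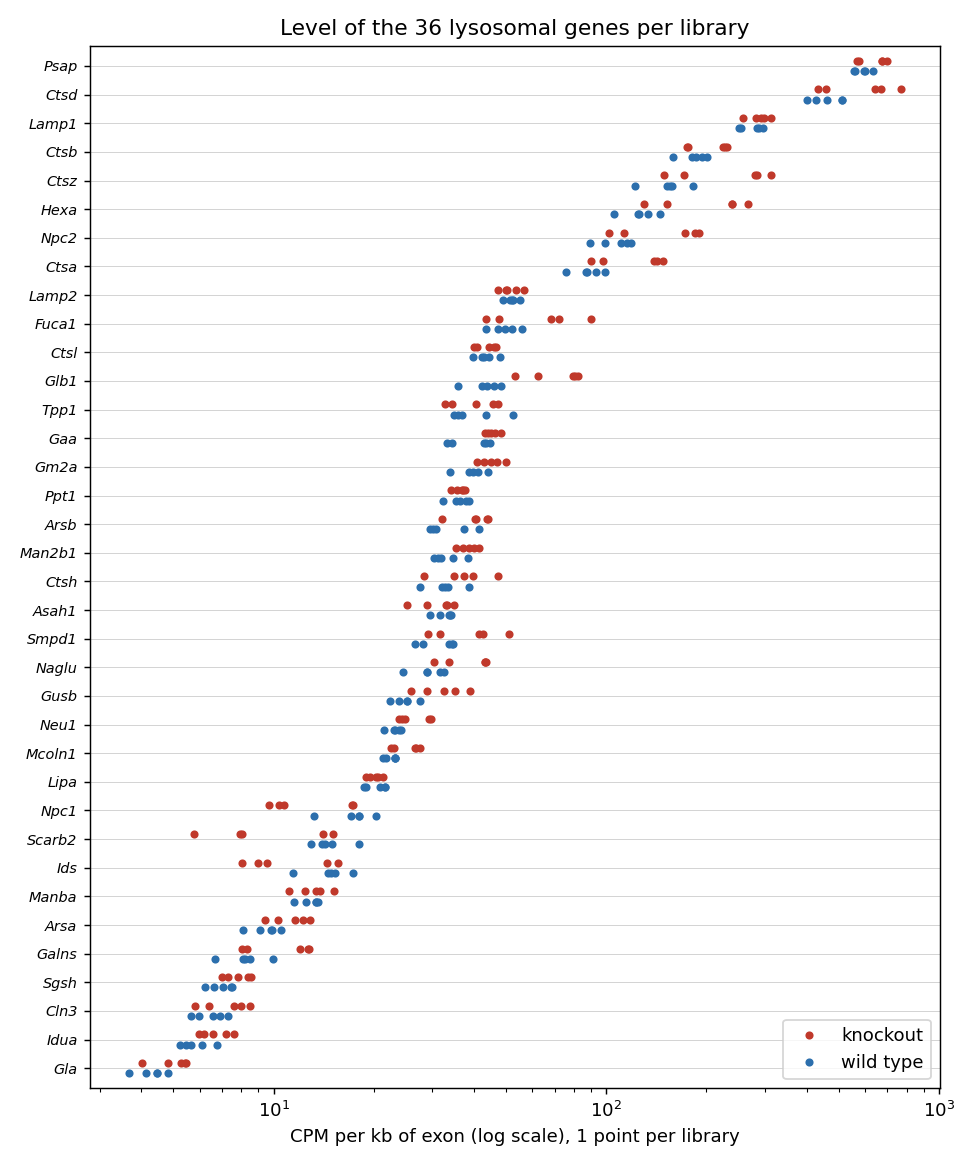
Level of each of the 36 genes in CPM per kb of exon on a log axis, with 1 point per library, knockout above wild type within each row and genes ordered by their wild-type mean. Psap, Ctsd and Lamp1 lead, Idua and Gla are lowest, and Ctsz, Npc2, Ctsa and Fuca1 each have 3 knockout points to the right of all their wild-type points.

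No member was called between the groups by edgeR's quasi-likelihood test at an adjusted p under 0.05, where 1 gene in all, or 0.00624% of those tested, was called higher and 2 genes, or 0.0125%, were called lower. At an unadjusted p under 0.05 the same test marked 10 members higher in the knockout, against 11.4% of all tested genes, and 2 members lower, against 8.66%. The share of members was larger than the background for higher values, and for lower ones it was near it. The members were chosen with earlier results of these data known, so this comparison with all genes carries no test. The log2 fold change was above 0 for 29 of 36 members, against 48.3% of all tested genes, with a median of 0.19 over the members and -0.014 over all tested genes. DESeq2 called Glb1 (adjusted p = 0.000435) and Hexa (adjusted p = 0.0362) higher and no member lower, where it called 1.27% of all genes higher and 0.834% lower, and limma-voom called no member. Without knockout 1, edgeR called Glb1 and Hexa, where 0.67% of all genes were called higher and 0.36% lower, and 18 members were higher at an unadjusted p under 0.05, against 17.9% of all genes, with 17.4% lower. After adjustment for the first principal component, 4 members were higher and 0 lower at that p, against 4.75% and 4.79%. Without knockout 2, 3 and 5 the unadjusted counts were 2 higher and 0 lower, where 1.86% and 2.16% of all genes were marked, and the median was 0.036. In bulk tissue, a change in the number of cells of a type and a change in RNA per cell cannot be told apart.

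**Figure D2:**
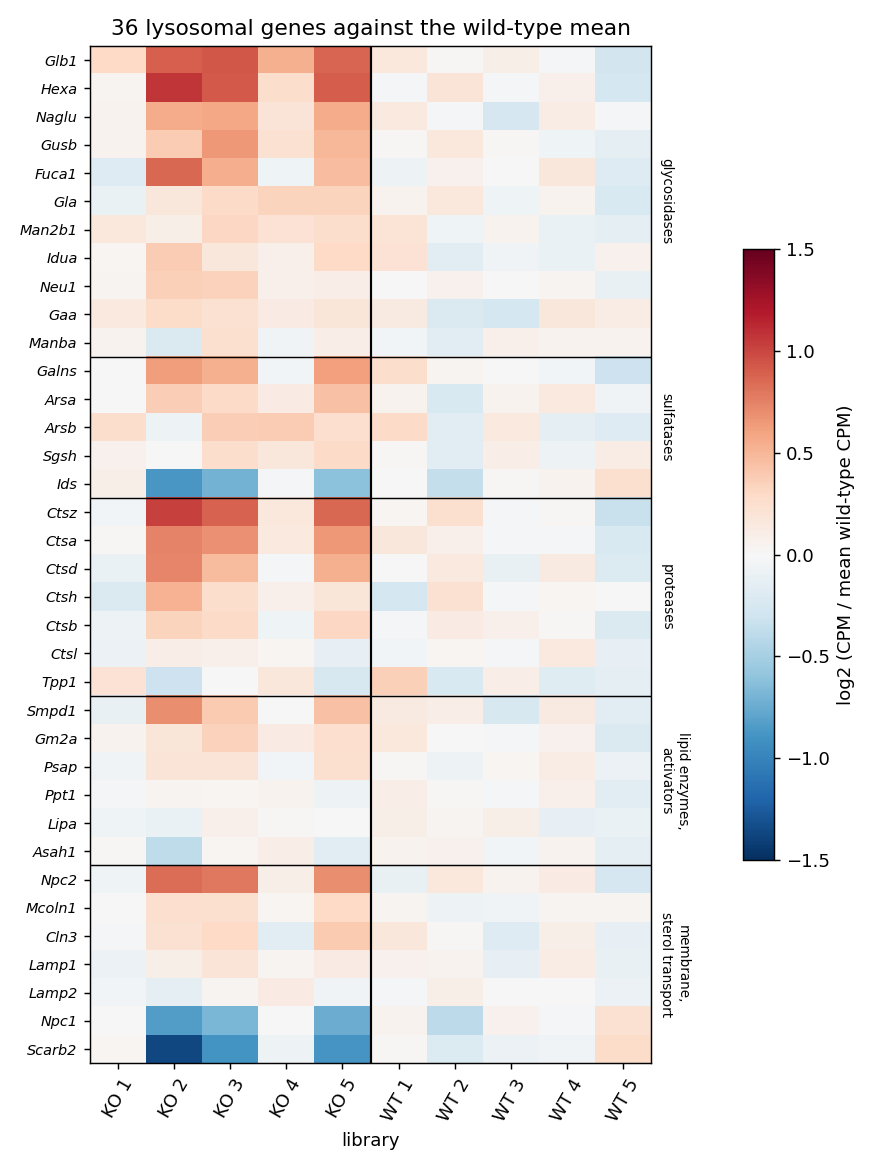
Log2 ratio of each library's CPM to the mean of the 5 wild-type libraries, for the 36 genes in 5 role groups with knockout libraries on the left. Knockout 2, 3 and 5 carry most of the deep colours in both directions. The row of Glb1 is above 0 in all 5 knockout libraries, as are several others, among them Hexa, Gusb and Naglu.

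Glycosidases, which trim sugars from glycoproteins, glycolipids and glycosaminoglycans, had positive log2 fold changes in 11 of 11 cases, with a median of 0.22, and 5 of them were higher at an unadjusted p under 0.05, against 11.4% of all tested genes. Glb1 (Entrez 12091, chromosome 9, 114401078 to 114474379, GRCm38) encodes beta-galactosidase, which cleaves ganglioside and keratan sulfate. It had 127, 192, 197, 149 and 190.2 CPM in knockout 1 to 5, against 115, 105, 110.0, 101 and 85.7 CPM in wild type 1 to 5. All 5 knockout libraries lay above the highest wild-type library, and Glb1 was the only member of the 36 whose groups did not overlap, where 1.15% of all tested genes lay wholly higher. No member lay wholly lower, against 1.22% of all. Its mean was 171 ± 31.2 CPM in the knockout and 104 ± 11.3 CPM in wild type (SD, n = 5 each), a log2 fold change of 0.73 with an SE of 0.135 and an adjusted p of 0.171 by edgeR's quasi-likelihood test. It was called at adjusted p = 0.0207 without knockout 1, while leaving out each of the other 9 libraries gave adjusted p values of 0.113 to 0.457. Correction for transcript length and GC content gave 0.61 and called it (adjusted p = 0.0346). It was not called with the Y-linked covariate (0.44, adjusted p = 0.9999), with the first principal component (0.45, adjusted p = 0.263) or without knockout 2, 3 and 5 (0.42 with an SE of 0.128, adjusted p = 0.9999). Glb1 shares 6.89% of its exonic bases with Tmppe on the same strand, and it lies 77.3 Mb from Pknox2 on chromosome 9.

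Hexa (Entrez 15211, chromosome 9, 59539540 to 59565109), the alpha subunit of beta-hexosaminidase A and the enzyme lost in Tay-Sachs disease, had 259.8, 534, 476, 304 and 476 CPM in knockout 1 to 5, against 249, 289, 250.1, 266 and 209.8 CPM in wild type 1 to 5. The libraries of knockout 2, 3 and 5 stood far above wild type, knockout 4 stood just above it and knockout 1 lay inside its range. The log2 fold change was 0.70 with an SE of 0.19 and an adjusted p of 0.21 by edgeR. It was called without knockout 1 (adjusted p = 0.0439) and was 0.16 without knockout 2, 3 and 5 and 0.19 with the Y-linked covariate. Hexa is also on chromosome 9, 22.4 Mb from Pknox2. Ctsh lies on that chromosome too, 52.9 Mb from Pknox2, and its log2 fold change was 0.19 with an SE of 0.137.

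Gusb, beta-glucuronidase, had 97.3, 122, 147, 109 and 132 CPM across knockout 1 to 5 and 94.8, 104, 94.8, 89.7 and 84.2 CPM across wild type 1 to 5. Of the knockout libraries 4 exceeded the highest wild-type one, and the log2 fold change was 0.38 with an SE of 0.116 and an adjusted p of 0.214 by edgeR. Naglu, the alpha-N-acetylglucosaminidase of heparan sulfate breakdown, had 77.9, 110.2, 112, 85.9 and 110.4 CPM in knockout 1 to 5, against 83.1, 74.0, 62.8, 80.9 and 73.9 CPM in wild type 1 to 5. Again 4 knockout libraries were above all wild-type ones and knockout 1 was not, with a log2 fold change of 0.40 with an SE of 0.125 and an adjusted p of 0.214. Man2b1, an alpha-mannosidase, had 142, 135, 158, 148 and 153 CPM across knockout 1 to 5 and 147, 122, 133, 119 and 116 CPM across wild type 1 to 5. Its range in the knockout was narrow, 3 of its libraries passed the highest wild-type value, and the log2 fold change was 0.21 with an SE of 0.0915 and an adjusted p of 0.243. Without knockout 2, 3 and 5 the log2 fold change was 0.14 for Gusb, 0.13 for Naglu and 0.19 for Man2b1, and with the Y-linked covariate it was 0.21, 0.14 and 0.22 in that order of genes.

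The other 6 glycosidases had log2 fold changes of 0.034 to 0.37 and an unadjusted p above 0.05. Fuca1, alpha-L-fucosidase, averaged 162 ± 48.2 CPM in the knockout and 125 ± 11.7 CPM in wild type (SD, n = 5 each), with 3 knockout libraries above wild type and knockout 1 just below it. Its log2 fold change of 0.37 turned to -0.13 without knockout 2, 3 and 5, to -0.097 with the Y-linked covariate and to -0.11 with the first principal component. Neu1, the sialidase that is held in a complex with Glb1 and Ctsa, averaged 65.3 ± 7.08 CPM in the knockout and 57.2 ± 2.62 CPM in wild type, with a log2 fold change of 0.19. Gaa, the acid alpha-glucosidase of glycogen breakdown, had 0.19, Gla had 0.22, Idua had 0.20 and the beta-mannosidase gene Manba had 0.034. Without knockout 2, 3 and 5 these were 0.060 for Neu1, 0.13 for Gaa, 0.14 for Gla, 0.056 for Idua and 0.0058 for Manba.

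**Figure D3:**
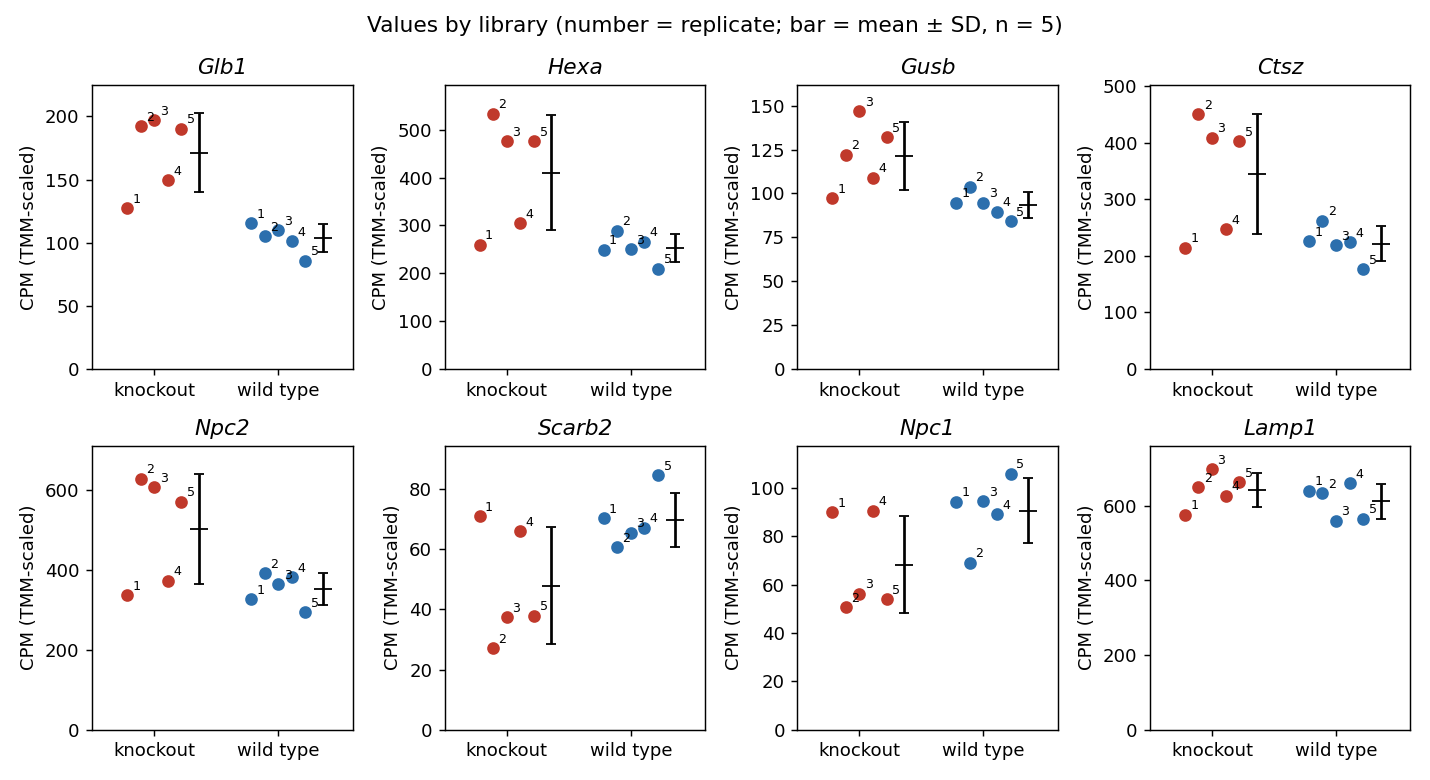
TMM-scaled CPM of 8 members by library, knockout left of wild type, with the replicate number beside each point and the mean ± SD (n = 5) at the side; each axis starts at 0. Glb1 is the panel in which the groups do not overlap, Hexa, Ctsz and Npc2 are highest in knockout 2, 3 and 5, and Scarb2 and Npc1 are lowest in those same libraries.

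Sulfatases remove sulfate groups from glycosaminoglycans and sulfatide, and depend on a modified cysteine made by Sumf1. Of 5 measured, 4 had log2 fold changes above 0, 2 were higher at an unadjusted p under 0.05, against 11.4% of all tested genes, and the median was 0.25. Galns, which acts on keratan and chondroitin sulfate, had 21.2, 32.6, 30.7, 20.6 and 32.5 CPM in knockout 1 to 5, against 25.4, 21.8, 21.0, 20.7 and 17.1 CPM in wild type 1 to 5. The values of knockout 1 and 4 lay within wild type and the other 3 above it, for a log2 fold change of 0.38 with an SE of 0.164 and an adjusted p of 0.241 by edgeR, which was -0.018 without those 3 libraries. Arsa, the arylsulfatase that degrades the myelin lipid sulfatide, had 32.9, 42.9, 40.4, 36.1 and 44.8 CPM across knockout 1 to 5 and 34.5, 28.3, 34.4, 36.6 and 31.9 CPM across wild type 1 to 5. The same 3 knockout libraries stood above wild type, the log2 fold change was 0.25 with an SE of 0.114 and an adjusted p of 0.245, and it was 0.059 without knockout 2, 3 and 5.

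Arsb, a sulfatase of dermatan and chondroitin sulfate, averaged 162 ± 19.4 CPM in the knockout and 137 ± 21.3 CPM in wild type (SD, n = 5 each; log2 fold change 0.25). Knockout 2 was the lowest of its knockout libraries, and the log2 fold change without knockout 2, 3 and 5 was 0.32. Opposite-strand exons of Gm26527 cover 48.2% of the exonic bases of Arsb. Whether counting used strand or included Gm26527 is not stated, so reads in that part may not all belong to Arsb. Sgsh, a sulfamidase, had 0.16, or 0.12 without those 3 libraries. Ids, the iduronate sulfatase, was the exception to the group's sign, at 56.3 ± 17.1 CPM in the knockout and 73.1 ± 10.6 CPM in wild type, a log2 fold change of -0.38. Its 3 lowest libraries were knockout 2, 3 and 5, and without them the value was 0.031.

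Proteases had a median log2 fold change of 0.19, with 6 of 7 above 0 and 2 higher at an unadjusted p under 0.05, against 11.4% of all tested genes. Ctsz, the carboxypeptidase cathepsin Z, had 215, 451, 409, 248 and 403 CPM in knockout 1 to 5, against 226, 262, 219, 224 and 176 CPM in wild type 1 to 5. The values of knockout 2, 3 and 5 were well above every other library, and those of knockout 1 and 4 lay inside the wild-type range. Its log2 fold change was 0.64 with an SE of 0.202 and an adjusted p of 0.214 by edgeR, and 0.062 without those 3 libraries, 0.12 with the Y-linked covariate and 0.32 after the length and GC correction. Ctsa, the carboxypeptidase that also protects Glb1 and Neu1 in their complex, had 329, 543, 521, 359 and 509 CPM across knockout 1 to 5 and 365, 342, 319, 322 and 279 CPM across wild type 1 to 5. The same 3 knockout libraries stood above wild type, and the log2 fold change was 0.48 with an SE of 0.152 and an adjusted p of 0.214, or 0.083 without knockout 2, 3 and 5. The 3 partners of that complex therefore had log2 fold changes of 0.73 for Glb1, 0.48 for Ctsa and 0.19 for Neu1.

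Ctsd reached 917, 1638, 1363, 974 and 1419.8 CPM in knockout 1 to 5, against 978, 1089, 911, 1084 and 856 CPM in wild type 1 to 5. Again knockout 2, 3 and 5 were above wild type and the other 2 within it. The log2 fold change was 0.36 with an SE of 0.166 and an adjusted p of 0.248 by edgeR and turned to -0.056 without those libraries. Exons of Gm49369 on the same strand cover 31.5% of the exonic bases of Ctsd, and opposite-strand exons of Pltp cover 13.5% of those of Ctsa, so these counts may be shared. The cysteine cathepsins Ctsb and Ctsh had 0.17 and 0.19, which turned to -0.072 and -0.062 without knockout 2, 3 and 5. Ctsl, another cysteine cathepsin, averaged 269 ± 18.6 CPM in the knockout and 268 ± 18.6 CPM in wild type (SD, n = 5 each), and its log2 fold change of 0.0047 had an SE of 0.0900, against -0.025 without those libraries. Tpp1, the tripeptidyl peptidase lost in a form of Batten disease, had -0.020 with an SE of 0.142, and 0.19 without those 3 libraries.

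The 6 lipid enzymes and activators had a median log2 fold change of 0.059, and none had an unadjusted p under 0.05. Smpd1, the acid sphingomyelinase, had the highest value, 0.31, with means of 94.3 ± 21.3 CPM in the knockout and 75.9 ± 9.26 CPM in wild type (SD, n = 5 each). Gm2a, the activator that presents ganglioside to the hexosaminidase of Hexa, had 0.19, and Psap had 0.11 with an SE of 0.106. Ppt1, a palmitoyl-protein thioesterase, averaged 126 ± 4.75 CPM in the knockout and 126 ± 8.74 CPM in wild type, with a log2 fold change of 0.0042 and an SE of 0.0805. The acid lipase gene Lipa had -0.011 (SE 0.0837) and the acid ceramidase gene Asah1 had -0.068 (SE 0.102). Without knockout 2, 3 and 5 the values were -0.054 for Smpd1, 0.088 for Gm2a, -0.043 for Psap, 0.016 for Ppt1, -0.017 for Lipa and 0.063 for Asah1.

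The 7 genes of the membrane and of sterol transport split in sign, with 4 above 0, 3 below 0 and a median of 0.071. Npc2 and Npc1 act in sequence, since the soluble Npc2 hands cholesterol to the membrane protein Npc1, and their log2 fold changes had opposite signs. Npc2 had 337, 629, 608, 373 and 570.5 CPM in knockout 1 to 5, against 326, 391, 364, 381 and 294 CPM in wild type 1 to 5. Npc1 had 89.8, 50.7, 56.2, 90.5 and 54.1 CPM across knockout 1 to 5 and 94.3, 69.1, 94.4, 89.2 and 106 CPM across wild type 1 to 5. Knockout 2, 3 and 5 were the 3 highest libraries for Npc2 and the 3 lowest for Npc1, while knockout 1 and 4 lay within the wild-type range for both. The log2 fold change was 0.52 with an SE of 0.181 and an adjusted p of 0.217 for Npc2 and -0.41 with an SE of 0.185 and an adjusted p of 0.245 for Npc1 by edgeR, and 0.015 and -0.0056 without those 3 libraries. With the Y-linked covariate Npc2 was at 0.10 and Npc1 at -0.079.

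Scarb2, a glycoprotein of the lysosomal membrane, had 71.1, 27.1, 37.4, 66.0 and 37.9 CPM in knockout 1 to 5, against 70.4, 60.7, 65.5, 67.2 and 84.6 CPM in wild type 1 to 5. It was the member with the lowest log2 fold change, -0.54 with an SE of 0.235 and an adjusted p of 0.241, and with the same 3 low libraries, and it had -0.023 without them and -0.059 with the Y-linked covariate. The membrane glycoproteins Lamp1 and Lamp2, often used as lysosome markers, had 0.071 (SE 0.0972) and -0.010 (SE 0.0847). Lamp2 averaged 260.1 ± 17.6 CPM in the knockout and 262 ± 10.99 CPM in wild type (SD, n = 5 each). Mcoln1, the calcium channel mucolipin, had 0.17, and the Batten disease gene Cln3 had 0.16. Without knockout 2, 3 and 5 the values were -0.024 for Lamp1, 0.041 for Lamp2, 0.018 for Mcoln1 and -0.085 for Cln3.

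**Figure D4:**
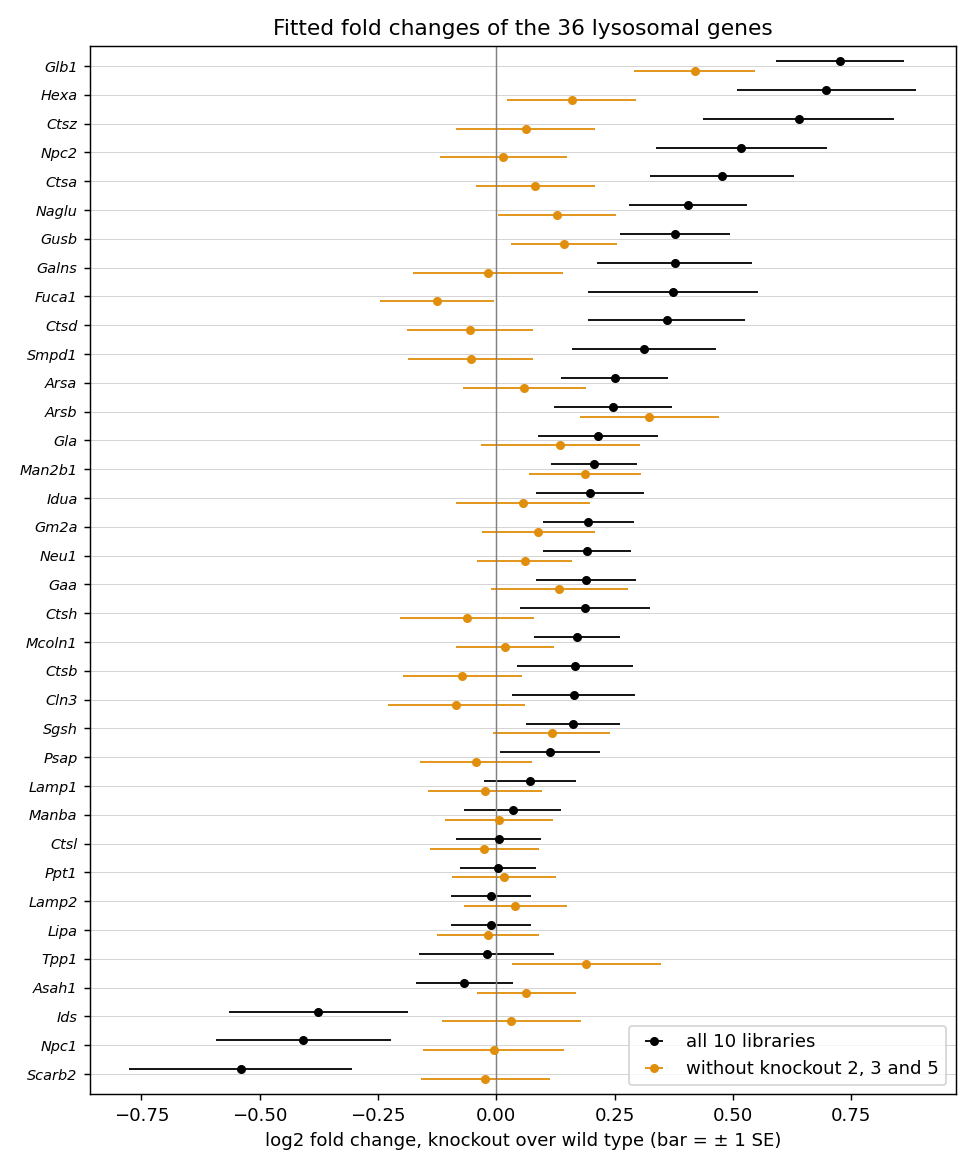
Fitted log2 fold change, knockout over wild type, of each of the 36 genes with ± 1 SE, in all 10 libraries (black) and without knockout 2, 3 and 5 (orange). For most genes the orange point stands closer to 0 than the black one; Glb1 has the highest orange value, at 0.42, and Arsb is second at 0.32.

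The same 3 libraries ordered most of the list. Knockout 2, 3 and 5 were the 3 highest of the 10 libraries for 19 of the 36 members (52.8%), against 18.4% of all tested genes, and the 3 lowest for 3 members (8.33%), namely Scarb2, Npc1 and Ids, against 18.4% of all. Knockout 1 and 4 both lay within the wild-type range for 24 members (66.7%), a share close to the 60.2% of all tested genes. These counts were chosen after the values were seen and carry no test. By role, the first pattern held for 7 of 11 glycosidases, 2 of 5 sulfatases, 4 of 7 proteases, 3 of 6 lipid genes and 3 of 7 membrane and sterol genes. Transcript length moved with these differences. Across the 36 members, Spearman's rho between exon length and log2 fold change was -0.50, and across 15413 tested genes with a length it was -0.50 as well, both over genes measured in the same 10 libraries. The 3 members with the lowest log2 fold changes had exon lengths of 4698 bases for Scarb2, 5224 for Npc1 and 4972 for Ids, against 1441 for Ctsz, 1996 for Hexa and 2396 for Glb1. After correction for transcript length and GC content, which called 0.025% of all genes higher and 0.0687% lower, 13 members were higher and 2 lower at an unadjusted p under 0.05, against 11.5% and 9.95% of all genes, and the median was 0.19. Single members moved both ways under this correction: Ctsz was at 0.32, Ctsd at 0.17, Naglu at 0.25, Npc1 at -0.24 and Scarb2 at -0.40, while Ctsb was at 0.36 and Ctsl, at 0.0047 before it, was at 0.29.

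The members were also read by their promoters. Of the 12 members with CACGTG, 4 were higher and 0 lower at an unadjusted p under 0.05, against 11.4% and 8.66% of all tested genes, with a median log2 fold change of 0.20. Of the 19 with a promoter and no core, 5 were higher and 1 lower, with a median of 0.19. Lamp1, with 4 cores, had 0.071, and Hexa, with none, had 0.70.

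Together the 36 genes took 0.790%, 0.971%, 0.955%, 0.812% and 0.968% of the counts in knockout 1 to 5, against 0.808%, 0.819%, 0.786%, 0.831% and 0.731% in wild type 1 to 5. Again knockout 2, 3 and 5 exceeded every wild-type library, and knockout 1 and 4 did not. The proteases made up the largest part, at 0.283% to 0.399% in the knockout and 0.256% to 0.317% in wild type.

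Markers of osteoclasts and macrophages, cell types rich in lysosomal products, were highest in the same 3 libraries as these shares. Wild type 2, 1, 3 and 5 stood in that falling order by share and by osteoclast sum. Wild type 5 was the lowest by share and by the sums of both marker lists. Wild type 4 had the highest wild-type share of the 36 genes, at 0.831%, with the second lowest sums of both marker lists among the wild types. The 13 osteoclast markers summed to 4289, 6481, 7668, 5142 and 7029 CPM in knockout 1 to 5, against 3958, 4129, 3918, 3022 and 2648 CPM in wild type 1 to 5. Most of these sums came from Acp5, Ctsk and Mmp9. Their means were 2097, 2191 and 1164 CPM in the knockout, where the mean sum was 6122 CPM. In wild type they were 1024, 1313 and 710 CPM, of a mean sum of 3535 CPM. Acp5 and Ctsk are themselves lysosomal hydrolases and are listed again below as such. All 5 knockout sums were above all wild-type sums, while the shares of the 36 genes overlapped between the groups. Of the osteoclast markers 12 of 13 had log2 fold changes above 0, against 48.3% of all tested genes. At an unadjusted p under 0.05, 9 were higher, against 11.4% of all tested genes, and none was called. The median was 0.63, or 0.37 without knockout 2, 3 and 5 and 0.58 after the length and GC correction. Dcstamp, needed for osteoclast fusion, averaged 33.3 ± 8.62 CPM in the knockout and 16.0 ± 3.55 CPM in wild type (SD, n = 5 each; log2 fold change 1.06). The gelatinase gene Mmp9 had 0.71 and the receptor gene Oscar had 0.94. For these 3 markers the groups did not overlap, as for Glb1, where 1.15% of all tested genes lay wholly higher.

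The 18 macrophage and microglia markers summed to 1065 to 1427 CPM in the knockout and 862 to 1127 CPM in wild type, with overlapping groups. Of them 11 had log2 fold changes above 0. At an unadjusted p under 0.05, 3 were higher and 1 lower, against 11.4% and 8.66% of all tested genes. The median was 0.25, or -0.026 without knockout 2, 3 and 5 and 0.051 after the length and GC correction. The 3 markers with the smallest p were Tmem119 at 0.49, Cd68, itself a lysosomal membrane protein, at 0.77, and the receptor gene Csf1r at 0.43. Tmem119 held 326 of the 1268 CPM in the mean knockout sum, and 232 of the 1024 CPM in wild type. Which cells expressed it cannot be read from this bulk tissue, so its part in the sums may not come from macrophages. No osteoclast or macrophage marker was at 0 in any library. The part of these cell types in the values of the lysosomal genes was not tested.

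**Figure D5:**
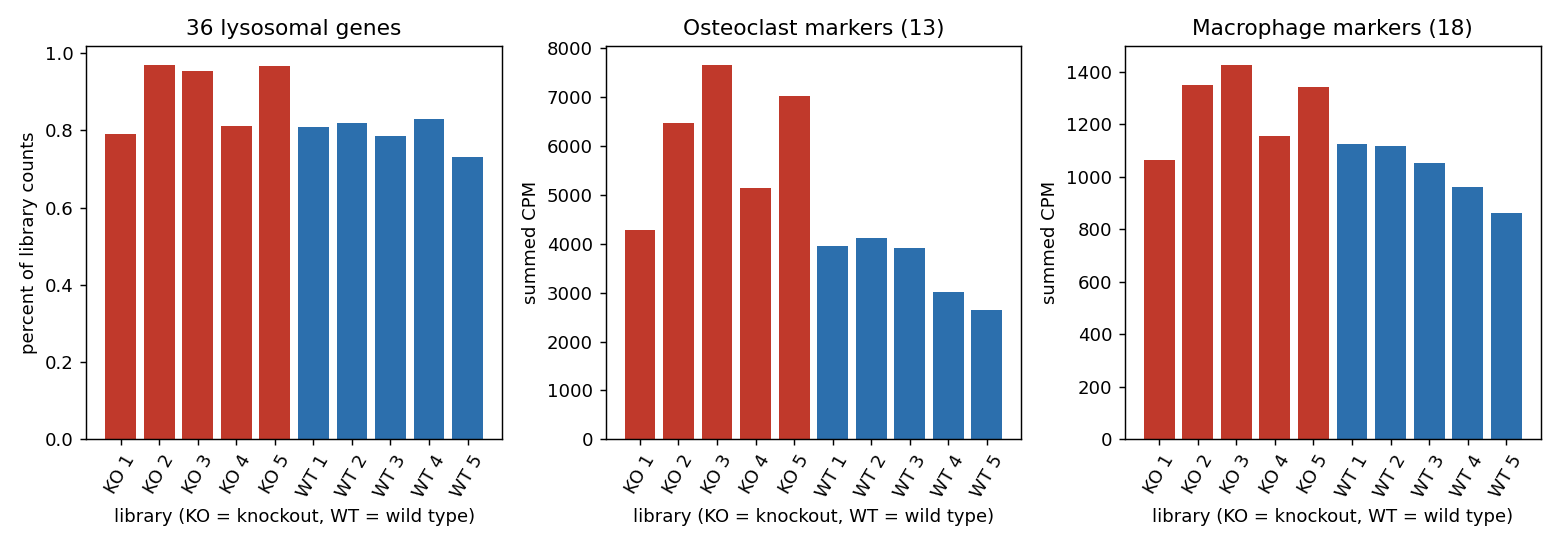
Share of library counts taken by the 36 lysosomal genes (left, percent), and summed CPM of 13 osteoclast markers (middle) and 18 macrophage markers (right), 1 bar per library with knockout on the left; all axes start at 0. Knockout 2, 3 and 5 have the tallest bars in each panel, and the osteoclast bars of all 5 knockout libraries are taller than those of wild type. Acp5, Ctsk and Mmp9 make up most of each osteoclast bar.

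Markers of nervous tissue had negative medians. The 13 Schwann cell and myelin markers summed to 10316 to 13671 CPM in the knockout and 16213 to 20623 CPM in wild type, with no overlap. Their median log2 fold change was -0.49 (-0.32 without knockout 2, 3 and 5). At an unadjusted p under 0.05, 10 of them were lower, against 8.66% of all tested genes. Pmp22 had -0.57, the proteolipid gene Mal had -0.52 and Drp2 had -0.74. The 10 neuron markers had a median of -0.42, or -0.26 without knockout 2, 3 and 5, with 3 lower at that p, against the same 8.66%. Their sums of 1231 to 2560 CPM in the knockout overlapped those of 2183 to 3294 CPM in wild type. Snap25 had -0.79, Nefl had -0.76 and Nefh had -0.52. Of 9 melanocyte markers 7 were tested, with a median of -0.17 and 1, Kit at -0.37, lower at that p, against the same 8.66%. Slc45a2 was at -0.17 and Pmel at 0.41. The 15 cochlea markers had a median of -0.14, with 2 higher and 3 lower at that p, against 11.4% and 8.66% of all tested genes. Among them Tectb was called (1.58, adjusted p = 0.0300, edgeR), Coch had -0.74 and Tecta had 0.72.

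The other genes of the lysosomal pathway were read from lists by function. Among 22 tested subunits of the V-ATPase, the pump that acidifies the lumen, none was called. At an unadjusted p under 0.05, 8 were higher and 1 lower, against 11.4% and 8.66% of all tested genes. Their median log2 fold change was 0.28, or 0.0054 without knockout 2, 3 and 5. The smallest p values belonged to Tcirg1 (0.63) and Atp6v0d2 (0.74), both also osteoclast markers, and to Atp6v1g1 (0.47). Of 30 other hydrolases and cofactors 9 were higher and 1 lower at an unadjusted p under 0.05, against the same shares of all tested genes. Their median was 0.12, or 0.082 without knockout 2, 3 and 5. Acp5, tartrate-resistant acid phosphatase, averaged 2097 ± 656 CPM in the knockout and 1024 ± 226 CPM in wild type (SD, n = 5 each), and Ctsk, the collagen-degrading cathepsin K, averaged 2191 ± 514 CPM in the knockout and 1313 ± 285 CPM in wild type. Both of these are osteoclast markers too.

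Of 24 other membrane proteins 6 were higher and 3 lower at an unadjusted p under 0.05, against 11.4% and 8.66% of all tested genes. Their median was 0.030. Tmem192 had 0.62, the chloride transporter gene Clcn7 had 0.25 and Glmp had 0.37. None of the 11 genes listed for the tagging, transport and sorting of lysosomal enzymes had an unadjusted p under 0.05. Their median was 0.024, with Gnptg at 0.19, Cln6 at 0.25 and Sort1 at -0.25. Among 19 lysosomal transcription factors and mTORC1 docking genes 2 were higher at that p, Lamtor4 (0.62) and Tfeb (0.36), against 11.4% of all tested genes. Their median was -0.079, and Rragb had -0.31. Tfeb, a master regulator of lysosomal genes, averaged 59.1 ± 13.03 CPM in the knockout and 46.1 ± 5.06 CPM in wild type (SD, n = 5 each), with its 3 highest values in knockout 2, 3 and 5.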

How the data were processed

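Whole cochleas at postnatal day 8 were kept in RNAlater and their total RNA was sequenced, per the labels. The deposited table holds raw counts per Entrez gene for 10 libraries. HISAT2, featureCounts, limma and the build mm10 are named in the submitters' processing notes, while the sources used here give no annotation, strand setting or filter. Symbols came from RefSeq GRCm38.p6 for 25275 IDs and from GENCODE M21 for 18, and 1886 IDs, with 0.473% to 1.24% of the counts, had none. Exon lengths are unions over GENCODE M21 basic transcripts.

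Counts were fitted with edgeR 4.0.16 (TMM scaling, genes filtered at a minimum count of 10 and a total of 15, quasi-likelihood test of knockout against wild type, Benjamini-Hochberg adjustment over all 16018 genes, threshold 0.05), in R 4.3.3. DESeq2 1.42.0 and limma 3.58.1 with voom weights were alternatives, as were RLE scaling, no filter on low counts, CPM above 1 in at least 5 libraries, a replicate block, Y-linked expression as a covariate and leaving out each library. Code was tested on simulated data. The series text calls the libraries separate samples, and p-values measure the spread between them, which may be technical where nothing says that they come from separate animals. Depth was 16.6 to 19.4 M counts per library.

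Values in every library are given for the 12 members with the smallest p, the 3 with the highest and the 2 with the lowest level per kilobase, and from each other list up to 3 genes with the smallest p are named, except 1 that is not reported here. The members and lists were chosen with earlier results of these data known. Of the 36 members, 14 share exonic bases with another gene and 8 share over 10%.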

Additional observations from a re-analysis of the deposited data

How the results depend on the processing

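Across 20 other settings, 328 of 340 refits of the 17 members with values in every library kept their direction. Of these settings 10 left out a single library, so many refits used nearly the same data. The 12 reversed refits all fell under the Y-linked covariate and the 3 settings chosen after seeing the data, given below. DESeq2 called 2 members higher (Glb1 and Hexa). Leaving out 1 library at a time gave 0 to 2 members called higher, the 2 being Glb1 and Hexa without knockout 1. At an unadjusted p under 0.05 these removals gave 7 to 18 members higher and 0 to 3 lower, against 6.09% to 17.9% and 4.46% to 17.4% of all genes, with medians of 0.16 to 0.22. RLE scaling gave 1 member lower at that p, against 8.21% of all genes. With the Y-linked covariate 1 member was higher, 0 were lower and the median was 0.023, while Ctsd was at -0.038, Psap at -0.014 and Lamp1 at -0.015. The next 3 settings were chosen after seeing the data. Without knockout 2, 3 and 5 together 2 members were higher, 0 lower and the median was 0.036, with Galns at -0.018, Ctsd at -0.056, Psap at -0.043 and Lamp1 at -0.024. Adjusted for the first principal component, 4 were higher, 0 lower and the median was 0.051, with Ctsd at -0.049, Psap at -0.011, Lamp1 at -0.023 and Npc1 at 0.0053. Removing the trend over length and GC content called 1 member higher, Glb1, and put Lamp1 at -0.024. The cause of these changes was not tested. After each gene's group mean was subtracted from its log CPM, same-numbered libraries correlated at 0.162, 0.51, 0.0289, 0.0909 and -0.383. The numbers were therefore not taken as pairs, and only knockout 2 correlated best with its own number. The fit with the replicate block called 0 members, with 7 higher and 3 lower at an unadjusted p under 0.05, against 11.3% and 13.4% of all genes, and Glb1 at 0.71. The comparisons rest on 5 libraries a group, of which 3 knockout libraries stand apart, and depth was not varied.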
